A study of Mus musculus with 6 samples.

Results

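Long noncoding RNAs (lncRNAs) are long transcripts that are not translated into a known protein. Some act as structural parts of nuclear bodies, some are primary transcripts from which microRNAs or small nucleolar RNAs are cut, and some are made beside a coding gene and act on that gene in cis. In blood cells, lncRNAs such as Morrbid, which represses the pro-apoptotic gene Bcl2l11 in short-lived mouse myeloid cells, have been tied to survival and maturation. Described here are 263 well expressed autosomal lncRNAs of a mouse leukemia data set, out of 56748 genes in the deposited count table. A gene was included when the table gave its biotype as lncRNA, it lay on neither X nor Y, it was not Gas5 or a Snhg gene, and its mean over all 6 libraries was at least 5 CPM (the count as parts per 1000000 of the column total). The 263 were thus selected on 1 measured value, the mean level. The table held 11288 lncRNA genes, of which 10515 met the conditions on name and chromosome. The choice used the mean over both groups together and not the difference between them. A gene close to absent from one group could enter only through its level in the other, and so had to differ: 45 of the 263 had a TMM-scaled mean below 5 CPM in one group, 24 in KO and 21 in WT.

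The data were bulk RNA sequencing of MLL-AF9 leukemia cells, a mouse model of acute myeloid leukemia driven by a fusion protein of MLL and AF9. The 6 libraries comprised 3 labelled Rbm5 KO (numbers 31, 32 and 40) and 3 labelled Rbm5 WT (numbers 25, 27 and 29), and all 6 carried MLL-AF9. RBM5 is an RNA-binding protein of pre-mRNA splicing, and the study asked about its role in the self-renewal of MLL leukemia. The labels name both whole bone marrow and cultured cells as the source of the RNA. How Rbm5 was removed, and the strain, sex, age and number of animals, are not stated in the labels. The p-values therefore measure the spread between these libraries, of which it is not known whether they came from separate animals.

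Total counts were 26359299 to 27638075 in the KO libraries and 27140474 to 31807588 in the WT libraries. Rbm5 itself was at 269, 267 and 245 CPM in KO libraries 31, 32 and 40, against 227, 214 and 174 CPM in WT libraries 25, 27 and 29 (log2 fold change 0.34, edgeR adjusted p = 0.107). The labelled gene was thus not lower in the libraries labelled KO, and KO and WT below stand for the labels. The Y-linked gene Ddx3y had 2645, 2674 and 3311 counts in the KO libraries and 0 in each WT library, so sex and label cannot be told apart. Neutrophil markers also moved with the label: 11 of 16 were higher in KO and 0 lower, none was at 0 in all libraries, and their summed level was 13376 to 30249 CPM in KO libraries, against 1327 to 4111 CPM in WT libraries. In bulk RNA, more cells of a type and more RNA per cell cannot be told apart. Of monocyte and macrophage markers, 3 of 12 were higher, with sums of 3553 to 5778 CPM in KO and 1682 to 2590 CPM in WT.

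The 263 lncRNAs made up a small part of the RNA, and few genes held much of it. They took 0.753%, 0.735% and 0.669% of counts in KO libraries 31, 32 and 40, against 0.818%, 0.794% and 0.759% in WT libraries 25, 27 and 29. As shares of the raw column totals, the KO values all lay below the WT values. The means were 0.719% ± 0.0441 in KO and 0.790% ± 0.0294 in WT (SD, n = 3 each). The exact permutation p, two-sided, was 0.1, which is the smallest that 3 against 3 can give. Without Malat1 and Neat1 the means were 0.590% and 0.679% (exact permutation p = 0.2), and the groups overlapped. These shares, unlike the levels per library, carry no TMM scaling. The TMM factors were also lower in KO, at 0.974, 0.993 and 0.908 in libraries 31, 32 and 40. In WT libraries 25, 27 and 29 they were 1.070, 1.062 and 1.001. Whether the KO shares stay below the WT shares after TMM scaling was not tested. The 10 highest lncRNAs held 49.8% of the counts on all 263, whereas 128 of the 263 averaged under 10 CPM. The genes just inside the limit were Gm45606 and 9230114K14Rik, both at 5.01 CPM, and those just outside were Gm10762 at 4.99 CPM and 1700052K11Rik at 4.97 CPM.

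Per kilobase of the deposited gene length, the highest levels belonged to Gm42047 at 190 CPM per kb and Malat1 at 142 CPM per kb. ENSMUSG00000120992, whose start faces that of Vars (a valyl-tRNA synthetase gene) at 570 bases, followed at 93.5 CPM per kb. AI506816 was at 81.7, ENSMUSG00000120800 at 70.4 and Zfas1 at 60.3 CPM per kb. ENSMUSG00000120800 is only 129 bases long in the table and lies inside Mylip on the same strand, and its level rests on a mean of 9.08 CPM. At the other end stood Kcnq1ot1, an imprinted transcript of 93092 bases, at 0.135 CPM per kb. Of the 263 genes, 230 carry names of predicted genes, and 33 carry other names.

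All 263 lncRNAs entered the test, and 28 (10.6%) passed an edgeR adjusted p of 0.05, against 8.57% of the 15963 genes tested. Higher in KO were 16 lncRNAs (6.08%, against 5.45% of all genes), and lower were 12 (4.56%, against 3.12%). Among protein-coding genes with a mean of at least 5 CPM the share called was 10.4%, and among autosomal lncRNAs below that limit it was 3.75%. The 263 were thus called about as often as coding genes of the same minimum level. Their median log2 fold change was -0.02, beside -0.01 over all genes tested. The KO and WT libraries did not overlap for 85 lncRNAs (32.3%, against 33.7% of all genes), of which 46 were higher (17.5%, against 17.2%) and 39 lower (14.8%, against 16.5%) in KO. A change of at least 2-fold either way was fitted for 38 lncRNAs (14.4%, against 12.4% of all genes). Protein-coding genes with a mean of at least 5 CPM had 6.02% with such a change and 38.5% without overlap. Autosomal lncRNAs below that limit had 20.2% and 23.8%. Those coding genes share the minimum level but not the level itself, with a median of 46.6 CPM against 10.3 CPM for the 263. For 155 of the 263 the 95% interval lay within a 2-fold change either way. Of the called lncRNAs, 13 were at least 2-fold higher and 11 at least 2-fold lower. Of the 28, 14 (7 higher and 7 lower) were among the 45 below 5 CPM in one group, including the 6 largest changes described below, and the other 14 (9 higher and 5 lower) were among the 218 at or above 5 CPM in both.

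**Figure D1:**
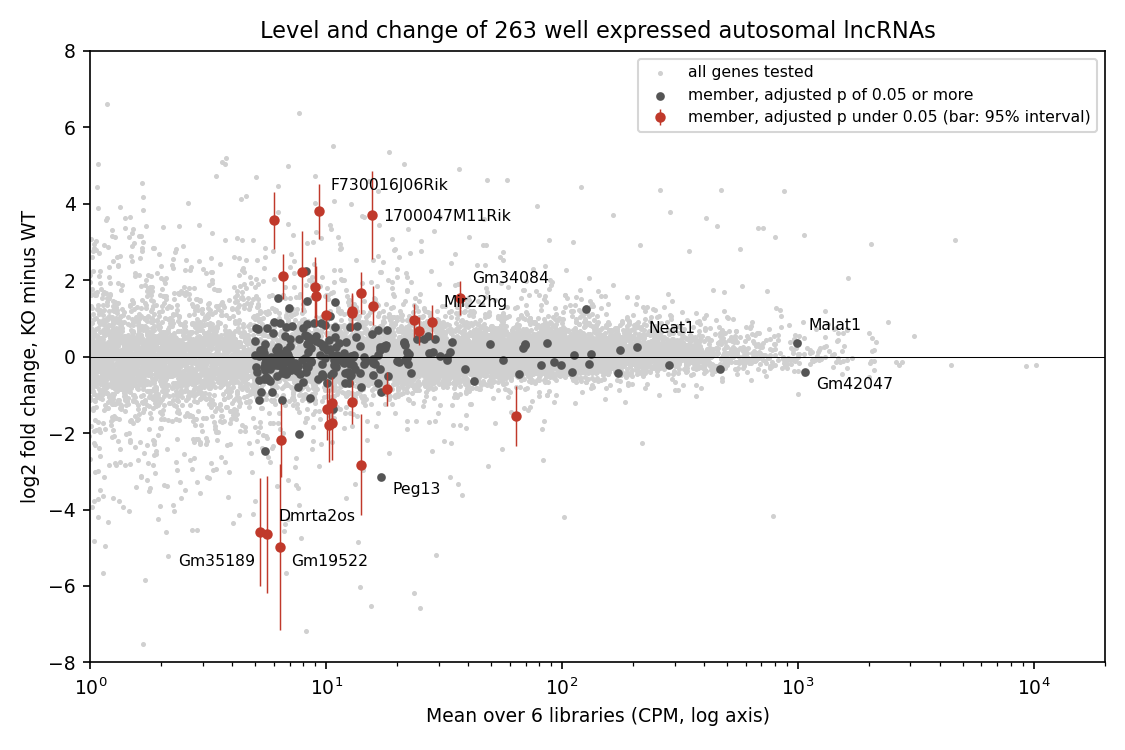
Each point is a gene, with its mean over the 6 libraries in CPM on a log axis and its fitted log2 fold change, KO minus WT. Grey points are all genes tested, dark points are the lncRNAs that did not pass the test, and red points with 95% intervals are the 28 that did; of the 12 lncRNAs with a mean of at least 100 CPM, 1110038B12Rik has 1.25 and the others lie between -0.42 and 0.36, and the 14 with a change of at least 4-fold all average at most 17.1 CPM.

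The number of calls depended on single libraries, among the lncRNAs as among all genes. Without KO library 31, 12 lncRNAs (4.56%) were called, against 2.98% of all genes in the same fit, and without KO library 40 also 12, against 2.09%. Without WT library 25, 27 or 29 there were 18, 14 and 18, against 3.93%, 3.99% and 4.16% of all genes. Without KO library 32 there were 27, against 7.38%. All 28 kept their sign in each of these 6 fits, and 8 of them passed the test in each. These 8 were F730016J06Rik, 1700047M11Rik, ENSMUSG00000121065, ENSMUSG00000120223, Gm34084 and Gm16712 among the rises, and Dmrta2os and Gm35189 among the falls.

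The largest falls were those of Gm19522, Dmrta2os and Gm35189. Coordinates below are those of the deposited table, which names no build and differs from GRCm38. Gm19522 (ENSMUSG00000116903, chromosome 16, 42704733 to 42732428, minus strand) was at 0.037, 0.076 and 1.02 CPM in KO libraries 31, 32 and 40, against 12.1, 12.3 and 11.1 CPM in WT libraries 25, 27 and 29. These KO values rest on 1, 2 and 25 counts, and its log2 fold change was -4.98 (95% interval -7.15 to -2.81, edgeR adjusted p = 0.0263). Without KO library 40, which holds most of those counts, it was -7.60. With no filter on low counts the edgeR adjusted p was 0.0925. Gm19522 lies inside Zbtb20, the gene of a zinc finger transcription factor, on the opposite strand. Zbtb20 was at 21.6, 10.8 and 18.4 CPM in KO and 103, 89.5 and 81.7 CPM in WT (log2 fold change -2.43, edgeR adjusted p = 0.00464). The labels do not state whether counting used strand, so overlapping genes may have shared reads.

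Dmrta2os (ENSMUSG00000085256, chromosome 4, 109833019 to 109835101, minus strand) was at 0.186, 0.420 and 0.613 CPM in KO, against 17.7, 8.75 and 4.31 CPM in WT. The groups did not overlap although the WT libraries spread widely, and the log2 fold change was -4.65 (95% interval -6.18 to -3.13, edgeR adjusted p = 0.0104). It is read away from Dmrta2, the gene of a DM-domain transcription factor, with 149 bases between the starts in the table. Dmrta2 was at 0.930, 1.11 and 2.45 CPM in KO and 95.7, 42.1 and 24.3 CPM in WT (log2 fold change -5.18, edgeR adjusted p = 0.0168). The divergent pair fell together, and WT libraries 25, 27 and 29 had the same order in both genes. Gm35189 (ENSMUSG00000112030, chromosome 12, 77086371 to 77088975, minus strand) was at 0.744, 0.306 and 0.123 CPM in KO, against 14.1, 8.58 and 5.96 CPM in WT (log2 fold change -4.58, 95% interval -6.00 to -3.17, edgeR adjusted p = 0.00824). Its nearest coding gene, 77396 bases away, is Max, which encodes the partner of MYC and had a log2 fold change of 0.43 (edgeR adjusted p = 0.041), the opposite direction.

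The RefSeq start regions of these 3 lncRNAs are shown because they are the genes that were close to absent from the KO libraries. RefSeq (GRCm38.p6) windows run from 250 bases before to 50 bases after a start and are written 5′ to 3′. They were matched by gene and not by position, so a RefSeq start may differ from the start in the deposited table. Dmrta2os has 3 start sites there and the first is given, at chr4:109979563-109979862 on the minus strand. The RefSeq window of Dmrta2, chr4:109977775-109978074, plus strand, shares 0 bases with it. All 3 RefSeq starts of Dmrta2os lie beyond the start of Dmrta2, not 149 bases before it as in the deposited table. The letters shown for Dmrta2os are thus not from that divergent start. The window of Gm19522 is at chr16:42912021-42912320, minus strand, and the first of the 2 of Gm35189 is at chr12:77055028-77055327, minus strand. Capitals mark CACGTG, the E-box bound by MYC and MAX, in Dmrta2os, TTGCNNAA, a pattern of C/EBP sites, in Gm19522, and TATAAA on both strands, which overlap, in Gm35189. The TATAAA letters lie near the 5′ end of that window, far upstream of the start. The other window of Gm35189, chr12:77053180-77053479, minus strand, holds TTGCNNAA and not TATAAA.
Dmrta2os: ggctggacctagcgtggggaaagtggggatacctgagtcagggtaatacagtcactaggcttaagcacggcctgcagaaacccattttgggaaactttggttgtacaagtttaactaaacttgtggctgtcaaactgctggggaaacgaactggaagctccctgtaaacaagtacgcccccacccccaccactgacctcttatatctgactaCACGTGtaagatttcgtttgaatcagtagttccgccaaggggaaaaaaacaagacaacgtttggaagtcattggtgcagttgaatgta
Gm19522: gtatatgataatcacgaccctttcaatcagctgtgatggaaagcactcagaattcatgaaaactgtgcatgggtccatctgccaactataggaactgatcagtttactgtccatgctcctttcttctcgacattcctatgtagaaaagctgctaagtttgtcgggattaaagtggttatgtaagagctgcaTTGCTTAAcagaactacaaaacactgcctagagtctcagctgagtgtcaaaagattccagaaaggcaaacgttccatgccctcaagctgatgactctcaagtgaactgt
Gm35189: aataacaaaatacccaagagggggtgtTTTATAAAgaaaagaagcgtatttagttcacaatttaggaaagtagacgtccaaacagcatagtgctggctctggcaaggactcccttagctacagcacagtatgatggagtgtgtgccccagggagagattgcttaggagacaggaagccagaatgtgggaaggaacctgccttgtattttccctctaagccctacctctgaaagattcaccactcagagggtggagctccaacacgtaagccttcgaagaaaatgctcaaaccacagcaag

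The other 9 falls were smaller. 4930444F02Rik was at 3.12, 4.40 and 2.37 CPM in KO, against 42.8, 16.8 and 10.9 CPM in WT (log2 fold change -2.83, edgeR adjusted p = 0.0311). C230014O12Rik was at 2.08, 3.36 and 1.27 CPM in KO, against 14.5, 8.72 and 7.20 CPM in WT (log2 fold change -2.17, edgeR adjusted p = 0.0233). In both, as in Dmrta2os and Gm35189, WT library 25 was the highest and WT library 29 the lowest of the WT libraries. Hoxaas3 (ENSMUSG00000085696, chromosome 6, 52152197 to 52192056, plus strand), an antisense transcript of the Hoxa cluster, was at 2.86, 3.78 and 6.86 CPM in KO, against 23.3, 10.1 and 13.5 CPM in WT. Its log2 fold change was -1.80 (SE 0.42, edgeR adjusted p = 0.0422), and it overlaps 6 coding genes, whose reads may be shared. Of 5 tested lncRNAs of the Hox clusters, 3 were called lower in KO: Hoxaas3, and below 5 CPM Hoxa11os (log2 fold change -4.52, edgeR adjusted p = 0.0227) and Hotairm1 (-1.87, 0.0491). The others, Hoxaas2 (-1.63, 0.0884) and 5730596B20Rik (-1.50, 0.165), were also lower but were not called. All 5 lie on chromosome 6, whose coding genes are described below.

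ENSMUSG00000120454 was the most abundant of the falls. It was at 36.6, 39.5 and 19.2 CPM in KO, against 64.1, 104 and 112 CPM in WT (log2 fold change -1.56, edgeR adjusted p = 0.038). It lies 27706 bases from Gata2, a transcription factor gene of blood progenitors, which was at 65.8, 38.3 and 33.2 CPM in KO and 103, 59.3 and 77.3 CPM in WT (-0.80, edgeR adjusted p = 0.157). Like Hoxaas3 it lies on chromosome 6, where the median log2 fold change of 472 coding genes with at least 5 CPM was -0.29. Against WT library 25 alone that median was -0.01. In the same comparison ENSMUSG00000120454 had -1.03 (edgeR adjusted p = 0.279) and Hoxaas3 -2.38 (edgeR adjusted p = 0.046), with the lone WT library assumed to vary like the KO libraries. The adjusted p over all alternatives was at most 0.279 for ENSMUSG00000120454 and at most 0.101 for Hoxaas3. The remaining 5 falls, Gm2788, A530010L16Rik, 4933439C10Rik, 9330159M07Rik and Gm807, had log2 fold changes between -1.73 and -0.86.

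Peg13, an imprinted lncRNA made from the paternal copy inside Trappc9, missed the threshold. It was at 0.818, 7.95 and 1.18 CPM in KO libraries 31, 32 and 40, against 36.3, 26.6 and 25.7 CPM in WT libraries 25, 27 and 29 (log2 fold change -3.15, SE 0.87, edgeR adjusted p = 0.0843). The groups did not overlap, and KO library 32 stood apart within its group at 26.9% of the WT mean. Without that library the log2 fold change was -4.88 (edgeR adjusted p = 0.00147). DESeq2 and limma-voom with all 6 libraries gave adjusted p = 0.0106 and 0.0157, and across all alternatives the adjusted p ran up to 0.357. Xist, which is X-linked and not among the 263, was also highest in library 32 among the KO libraries, at 13.5% of the WT mean. Its part in the value of Peg13 was not tested. Trappc9 itself had a log2 fold change of 0.23 (edgeR adjusted p = 0.161), and Kcnq1ot1, the other imprinted lncRNA among the 263, had -0.17 (0.671).

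The largest rise was that of F730016J06Rik (ENSMUSG00000086425, chromosome 2, 27985481 to 28017743, plus strand). It was at 21.8, 15.8 and 16.7 CPM in KO, against 1.00, 1.01 and 1.87 CPM in WT (log2 fold change 3.80, 95% interval 3.08 to 4.53, edgeR adjusted p = 0.00204). The 3 KO libraries were close to each other and far above all 3 WT libraries. Its nearest coding gene at 10584 bases is Fcnb, which encodes ficolin B, a lectin of the complement system made by myeloid cells. Fcnb was at 258, 267 and 433 CPM in KO and 7.82, 19 and 46.2 CPM in WT (log2 fold change 3.71, edgeR adjusted p = 0.0346).

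1700047M11Rik (ENSMUSG00000100147, chromosome 1, 182115506 to 182130890, plus strand) was at 36.0, 23.1 and 31.2 CPM in KO, against 0.823, 3.09 and 3.08 CPM in WT (log2 fold change 3.70, 95% interval 2.55 to 4.84, edgeR adjusted p = 0.0104). Beside it on the same strand lies ENSMUSG00000121042, at 37.6, 30.2 and 26.1 CPM in KO, against 19.3, 14 and 15.5 CPM in WT (log2 fold change 0.95, edgeR adjusted p = 0.0238). Both have as nearest coding gene Degs1, the dihydroceramide desaturase gene of sphingolipid synthesis. Degs1 was at 151, 124 and 156 CPM in KO and 66.9, 95 and 93.9 CPM in WT (log2 fold change 0.75, edgeR adjusted p = 0.0285). The 3 neighbours rose together, by very different amounts.

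For comparison with the falls, the RefSeq windows of these rises are at chr2:28095095-28095394, plus strand, and chr1:182300584-182300883, plus strand. These too were matched by gene, and their starts may differ from those of the deposited table. Neither held, on either strand, the E-box CACGTG, the core of PU.1 sites (GAGGAAG), the C/EBP pattern TTGCNNAA or the TATA box letters TATAAA, so nothing is in capitals.
F730016J06Rik: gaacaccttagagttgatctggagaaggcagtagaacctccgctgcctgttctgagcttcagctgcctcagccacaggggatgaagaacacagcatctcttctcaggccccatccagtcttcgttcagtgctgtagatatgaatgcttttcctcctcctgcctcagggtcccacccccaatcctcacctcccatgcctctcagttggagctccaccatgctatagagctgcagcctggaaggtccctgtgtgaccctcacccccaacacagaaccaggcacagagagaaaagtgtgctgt
1700047M11Rik: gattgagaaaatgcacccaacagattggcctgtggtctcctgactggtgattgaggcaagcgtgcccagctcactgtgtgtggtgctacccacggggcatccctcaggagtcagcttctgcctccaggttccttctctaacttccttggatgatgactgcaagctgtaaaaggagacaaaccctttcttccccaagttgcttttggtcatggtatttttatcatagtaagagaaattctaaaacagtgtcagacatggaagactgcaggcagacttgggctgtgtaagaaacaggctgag

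ENSMUSG00000121065 was at 11.6, 11 and 12 CPM in KO, against 0.588, 1.28 and 1.05 CPM in WT (log2 fold change 3.57, edgeR adjusted p = 0.00262). Its nearest coding gene, Tmem150c, had too few counts to be tested. Gm20658 (log2 fold change 2.22, edgeR adjusted p = 0.0301) and ENSMUSG00000120223 (2.10, 0.00608) were the next largest rises. Gm34084, the most abundant of the rises, was at 61.6, 45.8 and 61.3 CPM in KO, against 17, 16.6 and 24.8 CPM in WT (log2 fold change 1.53, edgeR adjusted p = 0.00683). Its nearest coding gene, the chromatin regulator gene Jarid2, is 224926 bases away and had a log2 fold change of 0.05 (edgeR adjusted p = 0.756). The other rises lay between 0.68 for Gm47071, which missed the threshold under total-count and upper-quartile scaling, and 1.81 for Gm49654.

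**Figure D2:**
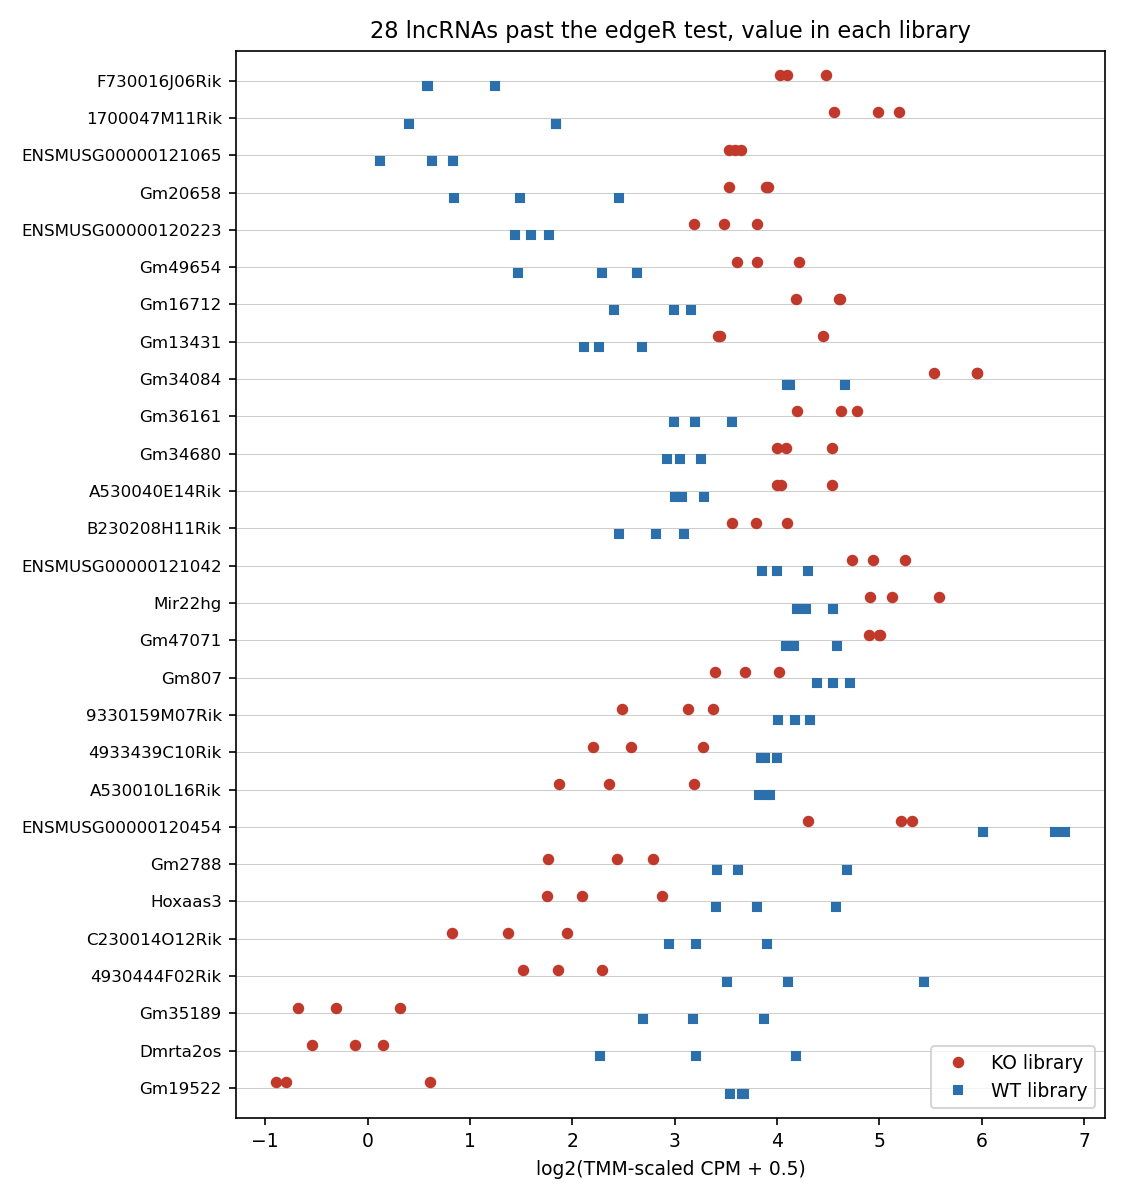
Value of each of the 28 called lncRNAs in each library, as log2(TMM-scaled CPM + 0.5), with KO libraries as red circles and WT libraries as blue squares, ordered by fold change. The 16 rises are above and the 12 falls below, and KO and WT libraries do not overlap in any of them.

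Of 3 tested lncRNAs of nuclear bodies, Malat1 and Neat1 were abundant and did not pass the test, and Miat, at a low level, did. Malat1, a nuclear RNA of splicing speckles, was at 991, 852 and 1533 CPM in KO, against 896, 651 and 1091 CPM in WT (log2 fold change 0.36, 95% interval -0.27 to 0.98, edgeR adjusted p = 0.436). Neat1, on which paraspeckles are built, was at 185, 264 and 231 CPM in KO, against 222, 208 and 140 CPM in WT (log2 fold change 0.26, 95% interval -0.20 to 0.71, edgeR adjusted p = 0.447). In both genes the groups overlapped. Miat, which averaged 0.544 CPM and so is not among the 263, was lower in KO (log2 fold change -2.50, edgeR adjusted p = 0.0356). Of 18 paraspeckle protein genes, edgeR called 0 and 2 had an unadjusted p under 0.05, with a median log2 fold change of -0.10. Of 20 nuclear speckle genes, edgeR called 0 and 3 had an unadjusted p under 0.05. Their median was 0.04 with TMM, -0.01 with upper-quartile factors and -0.08 with total counts. Of 21 tested genes of nuclear RNA decay, edgeR called 0 and 5 had an unadjusted p under 0.05 (median -0.10). DESeq2 called 0, 3 and 2 genes of these 3 lists, and limma-voom called 0 of each.

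Gm42047, the highest of all 263, was at 921, 1064 and 748 CPM in KO, against 1009, 1491 and 1132 CPM in WT (log2 fold change -0.41, edgeR adjusted p = 0.188). AI506816 was at 517, 386 and 333 CPM in KO, against 498, 512 and 544 CPM in WT (-0.33, edgeR adjusted p = 0.22). Its nearest coding gene, Srpk2, encodes a kinase of SR splicing proteins and was higher in KO (log2 fold change 0.53, edgeR adjusted p = 0.018). The cytoplasmic lncRNA Norad, which binds Pumilio proteins, was at 135, 121 and 105 CPM in KO, against 142, 151 and 124 CPM in WT (-0.21, edgeR adjusted p = 0.313). Oip5os1, also called Cyrano, which triggers the decay of miR-7, had 0.05 (0.903), and Zfas1, a host of small nucleolar RNAs, had 0.16 (0.596). Chaserr, which represses the adjoining chromatin remodeller gene Chd2, was the closest of these to the threshold. It was at 96.7, 91.5 and 105 CPM in KO, against 72.4, 73.7 and 82.3 CPM in WT (log2 fold change 0.36, SE 0.10, edgeR adjusted p = 0.0579), with no overlap of the groups. Chd2 had 0.12 (edgeR adjusted p = 0.635).

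Of 5 lncRNAs of inflammation and myeloid cells among the 263 (Malat1, Neat1, Mirt1, Mir142hg and Morrbid), edgeR, DESeq2 and limma-voom called 0, and 1 had an unadjusted edgeR p under 0.05. Morrbid was at 17.8, 12.8 and 17.1 CPM in KO, against 8.18, 10.7 and 14.7 CPM in WT (log2 fold change 0.51, edgeR adjusted p = 0.228). Its target Bcl2l11 was at 58.2, 48.3 and 71.9 CPM in KO and 39.6, 26.1 and 42.8 CPM in WT (0.72, edgeR adjusted p = 0.0802). Mirt1 was at 95.3, 112 and 75 CPM in KO, against 148, 115 and 109 CPM in WT (-0.40, edgeR adjusted p = 0.185). Mirt2, which averaged below 5 CPM, was higher in KO (log2 fold change 2.77, edgeR adjusted p = 0.0433). The log2 fold change was 0.11 for Lockd (edgeR adjusted p = 0.818), a lncRNA downstream of the cell-cycle inhibitor gene Cdkn1b, and -0.14 for Dancr (0.803), which holds back differentiation in several cell types.

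**Figure D3:**
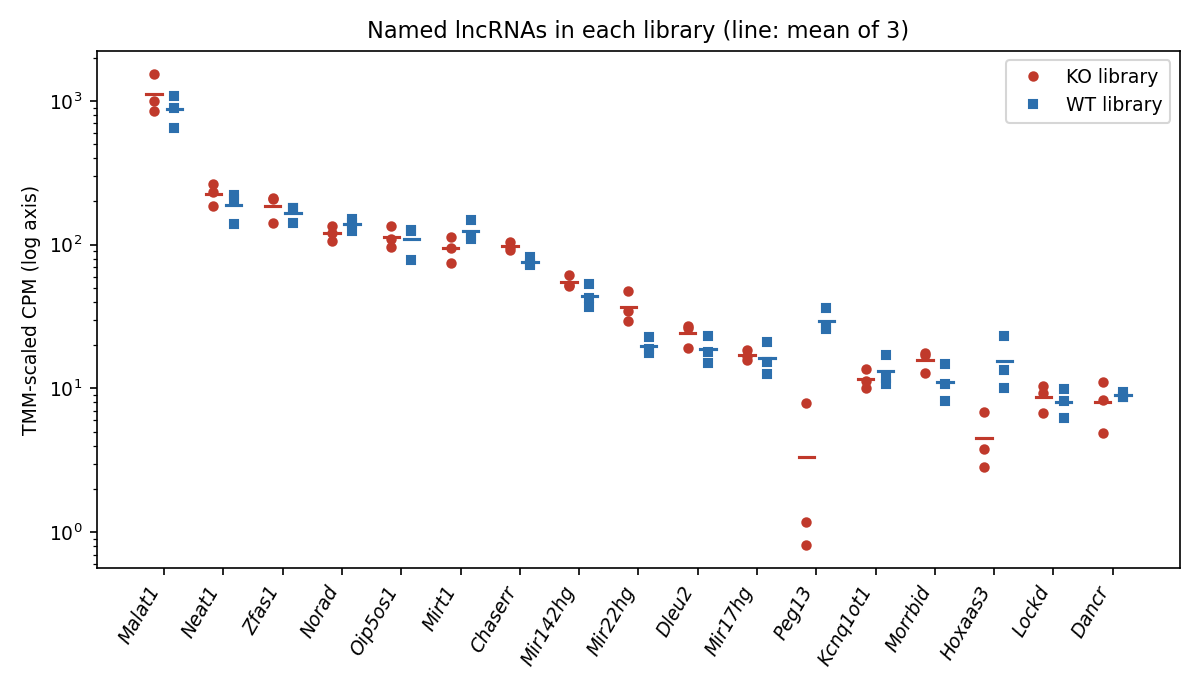
TMM-scaled CPM on a log axis of 17 named lncRNAs in each library, KO as red circles on the left and WT as blue squares on the right of each pair, with a line at the mean of 3. Malat1 and Neat1 overlap between the groups, Mir22hg and Hoxaas3 are the 2 of these that passed the test, and Peg13 has 1 KO library far from the other 2.

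MicroRNA hosts are shown with the mature sequences they hold. By position in the table, 7 of the 263 lncRNAs hold 14 microRNA genes, and 10 hold 17 small nucleolar RNA genes. Each of the 14 microRNA rows had 0 counts in all libraries, so only the hosts were measured. Mir22hg was the one host called. It was at 34.4, 29.5 and 47.5 CPM in KO, against 18.9, 17.8 and 22.9 CPM in WT (log2 fold change 0.90, SE 0.19, edgeR adjusted p = 0.0311), and the adjusted p reached 0.15 over the alternatives. It overlaps Tlcd2 on the same strand, which was at 12.7, 8.95 and 17.3 CPM in KO and 20.9, 14.4 and 25.7 CPM in WT (-0.65, edgeR adjusted p = 0.195). Mir142hg, host of the blood-cell microRNA miR-142, was at 51.5, 52.7 and 61.1 CPM in KO, against 36.9, 42.7 and 53.1 CPM in WT (0.32, edgeR adjusted p = 0.211). Dleu2, host of miR-15a and miR-16, had 0.38 (0.281), and Mir17hg, host of the growth-promoting miR-17-92 cluster, had 0.05 (0.899). The interval of Mir17hg ran from -0.42 to 0.53. Mature sequences are from RefSeq (GRCm38.p6), 5′ to 3′, with the seed (bases 2 to 8) in capitals; that of miR-22-3p lies at chr11:75463772-75463793, plus strand.
mmu-miR-22-3p: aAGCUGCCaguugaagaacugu
mmu-miR-22-5p: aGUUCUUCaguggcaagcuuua
mmu-miR-142a-3p: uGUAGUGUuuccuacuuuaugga
mmu-miR-142a-5p: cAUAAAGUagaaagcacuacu
mmu-miR-15a-5p: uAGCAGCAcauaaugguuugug
mmu-miR-16-5p: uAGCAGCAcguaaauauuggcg
mmu-miR-17-5p: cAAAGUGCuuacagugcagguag
mmu-miR-20a-5p: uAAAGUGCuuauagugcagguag
mmu-miR-18a-5p: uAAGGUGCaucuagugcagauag
mmu-miR-19a-3p: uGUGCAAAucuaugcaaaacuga
mmu-miR-19b-3p: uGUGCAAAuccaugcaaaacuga
mmu-miR-92a-3p: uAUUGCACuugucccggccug
Within hosts, miR-15a-5p shares the seed AGCAGCA with miR-16-5p, miR-17-5p shares AAAGUGC with miR-20a-5p, and miR-19a-3p shares GUGCAAA with miR-19b-3p. The seed of miR-22-3p, AGCUGCC, is found in no other mature sequence of these hosts.

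Called lncRNAs often lay beside called coding genes. Of 244 lncRNAs whose nearest coding gene was tested, the log2 fold changes of lncRNA and coding gene had a Pearson r of 0.56 and a Spearman rho of 0.49 across pairs, which share the same 6 libraries. Over all 244 pairs 62.3% had the same sign. In the 123 pairs that do not overlap, r was 0.55, rho 0.37 and the share with the same sign 54.5%. In the 28 of them with divergent starts within 1000 bases, r was 0.86, rho 0.11 and the share 50%. Only 1 of these 28 lncRNAs was called, Dmrta2os, at -4.65 beside -5.18 for Dmrta2. The r without this extreme pair was not computed. In the 99 pairs that overlap on opposite strands, r was 0.65 and rho 0.66, and 73.7% had the same sign. In the 22 that overlap on the same strand, r was 0.22 and rho 0.40, with 54.5% of the same sign. Overlapping genes may share reads, and 129 of the 263 lncRNAs (49.0%) overlap a coding gene. Of 23 called lncRNAs with a tested neighbour, 12 (52.2%) had a called neighbour, 11 of them in the same direction. Among lncRNAs not called the share was 12.2% (27 of 221), and among all tested protein-coding genes 10.02% were called. In 8 of the 12 the spans do not overlap, and 2 of these 8, 1700047M11Rik and ENSMUSG00000121042, have the same neighbour, Degs1.

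Besides those above, the non-overlapping pairs were Gm49654 with Map3k9, B230208H11Rik with Stx11 and Gm13431 with Ptgs1. Each of these pairs lies on the same strand, 958, 15093 and 7392 bases apart. Stx11, a syntaxin of granule release, was at 61.1, 38.1 and 56.3 CPM in KO and 21.9, 22.3 and 19.6 CPM in WT (log2 fold change 1.28, edgeR adjusted p = 0.009). B230208H11Rik was at 11.3, 13.4 and 16.7 CPM in KO, against 5.00, 6.56 and 7.99 CPM in WT (1.08, edgeR adjusted p = 0.0366). Ptgs1, which encodes cyclooxygenase 1, rose by 0.82 (edgeR adjusted p = 0.0447), beside 1.58 for Gm13431 (0.0322). Map3k9, a mixed-lineage kinase gene, rose by 1.37 (0.024), beside 1.81 for Gm49654 (0.0238). Overlapping pairs that moved the same way were Gm16712 with the cytokine subunit gene Ebi3 (1.66 and 0.59), 4933439C10Rik with Zkscan17 (-1.22 and -0.83), and Gm2788 with Nav2 (-1.73 and -0.72). Norad was among the 27 uncalled lncRNAs with a called neighbour. Its neighbour Cnbd2, 12422 bases away on the other strand, was at 28.9, 15.7 and 18 CPM in KO and 1.79, 2.99 and 2.41 CPM in WT (log2 fold change 3.12, edgeR adjusted p = 0.00274).

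**Figure D4:**
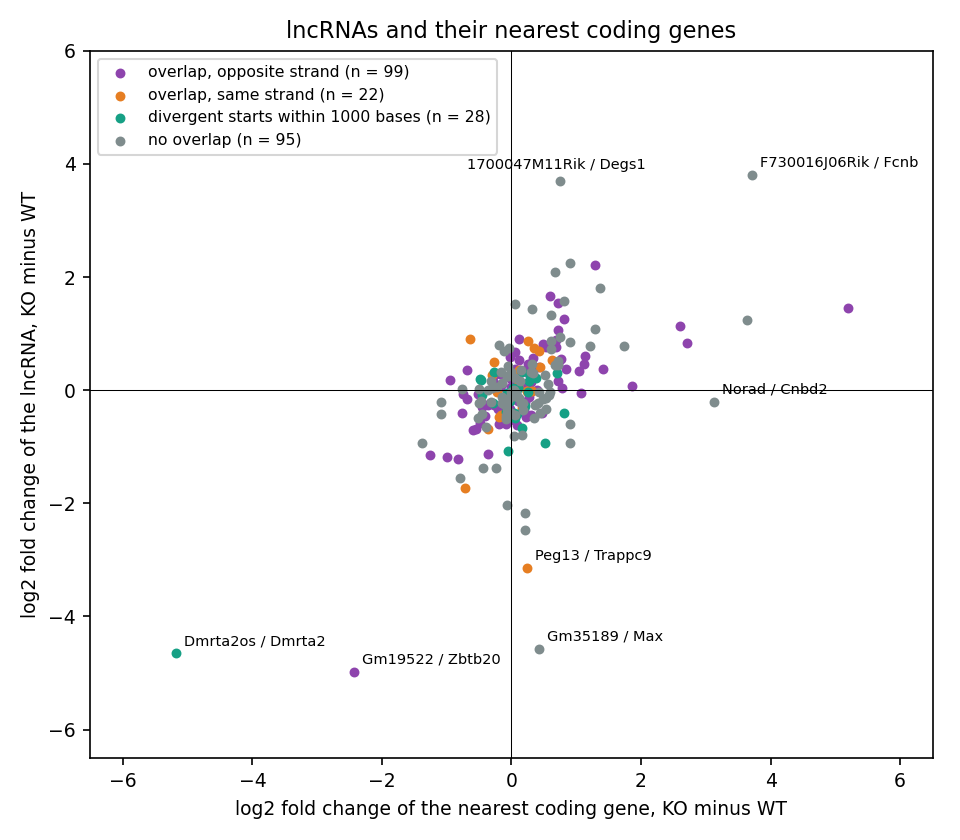
Log2 fold change, KO minus WT, of 244 lncRNAs against that of the nearest or overlapping coding gene, coloured by how the pair lies on the chromosome. Dmrta2os with Dmrta2, Gm19522 with Zbtb20 and F730016J06Rik with Fcnb moved together, whereas Gm35189 with Max, Peg13 with Trappc9 and Norad with Cnbd2 lie off the diagonal.

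Within groups, the SD of log2 levels had a median of 0.30 over the 263 lncRNAs, and 10% of them were above 0.60. The widest was Gm26802, whose nearest coding gene, 1926 bases away, is the AP-1 gene Fosb. It was at 12.9, 19.1 and 61.4 CPM in KO libraries 31, 32 and 40, against 6.41, 2.99 and 58.9 CPM in WT libraries 25, 27 and 29. Library 40 of KO and library 29 of WT thus stood far above the rest of their groups. These were the 2 highest libraries for 15 of the 263 lncRNAs, whereas the other pairs of libraries were the 2 highest for 5 to 44. Among the 15 were Gm36862 near Odc1, Gm17024 inside Ifrd1 and Gm15344 inside Hsp90b1. A list of 13 immediate early genes, drawn up after these values were seen, summed to 6415, 7947 and 19849 CPM in KO, against 4307, 3795 and 10529 CPM in WT. Of the 13, edgeR called 0, with 2 at an unadjusted p under 0.05, DESeq2 called 3 and limma-voom 0. The part of this difference between libraries in the values of these lncRNAs was not tested. 1110038B12Rik was at 355, 86.5 and 95.5 CPM in KO, against 87.3, 60.7 and 78.5 CPM in WT, so that KO library 31 alone set its log2 fold change of 1.25 (0.27 without it, edgeR adjusted p = 0.247 with it). The inducible heat shock gene Hspa1b, 3914 bases from it, was at 1149, 114 and 1126 CPM in KO and 38.3, 31.8 and 122 CPM in WT (edgeR adjusted p = 0.0905).

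**Figure D5:**
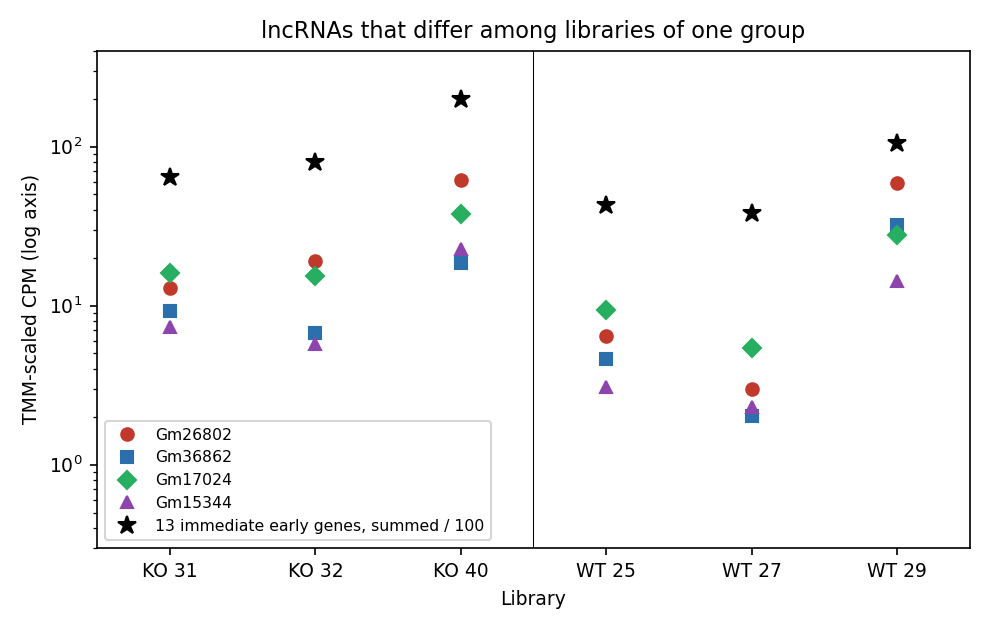
TMM-scaled CPM on a log axis of 4 lncRNAs in each library, KO libraries on the left and WT libraries on the right, with the summed level of 13 immediate early genes divided by 100 as stars. In each group the last library (KO 40 and WT 29) is the highest for all 4 lncRNAs and for the sum. The 4 were taken from the 15 lncRNAs with these 2 libraries highest, so for them this order was fixed by the choice. The list of immediate early genes was drawn up after these values were seen. Gm27252, which also varied widely (SD 1.24), had KO 32 and WT 27 highest and is not shown.

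RefSeq gave start windows for 115 of the 263 lncRNAs. CACGTG was present in at least 1 window of 16 of them (13.9%), beside 8.09% of all 27025 genes with a window and 6.59% of the 9533 lncRNA genes among these. Besides Dmrta2os, the falls 9330159M07Rik and A530010L16Rik hold it, so 3 of 8 falls with a window do, and 0 of 9 rises. GAGGAAG was found in 26.96% of the 115, beside 15.4% of all genes, and in 2 of the 8 falls and 3 of the 9 rises. TTGCNNAA was found in 16.5%, beside 12.2%, and in 4 of the 8 falls and 1 of the 9 rises. TATAAA was found in 11.3%, beside 15.7%, and in 3 of the 8 falls and 1 of the 9 rises. Both strands were searched. CACGTG reads the same on both, and matches of 2 motifs were not kept from overlapping. These shares are descriptions of letters in a window, and genes with several start sites had more bases searched. The windows are at RefSeq starts, which may differ from the starts in the deposited table.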

How the data were processed

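The authors deposited 1 table of raw, whole-number gene counts with a column for each of the 6 libraries. The submitters' processing notes list Salmon and limma and the builds GRCm38 and mm10, with no roles. Neither the use of strand nor any filter, nor whether the counts are rounded estimates, is stated there or in the labels. Groups were taken from the sample titles.

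Membership used the biotype, chromosome, name and mean CPM (share of the column total) over the 6 libraries. The members, gene lists and tests were chosen with earlier results of these data known. Genes passing edgeR's filterByExpr defaults (minimum count 10, minimum total 15), 15963 in all, were scaled by TMM and tested with the robust quasi-likelihood fit of edgeR 4.0.16 (R 4.3.3), KO against WT, without covariates. P-values were adjusted by Benjamini-Hochberg across the 15963 genes, and 0.05 was the threshold. Values per library are TMM-scaled CPM. The rule for named genes took the members of the role lists, the 10 highest members and the called members without a predicted name. Of called members with a predicted name it took the 6 largest and the 6 smallest fold changes. The other called members, and members such as Chaserr and ENSMUSG00000120800, lay outside this rule. Genes shown for their spread within groups, Peg13's comparison with Xist and the neighbours were chosen after their values were seen. A neighbour is the overlapping or else the nearest coding gene in the table's coordinates. The SD within groups used log2(CPM + 0.5). The lowest chi-square per degree of freedom between 2 libraries of a group was 39.3, so all 6 entered as separate libraries. The fit was tested on simulated data. Alternatives were other scalings, filters and limits, DESeq2 1.42.0, limma-voom (limma 3.58.1) and leaving out libraries. Precision is limited by counting (26359299 to 31807588 counts per library) and by 3 libraries per group. Sequences are from RefSeq (GRCm38.p6) and were matched by gene identifier or symbol.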

Additional observations from a re-analysis of the deposited data

How the results depend on the processing

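With all 6 libraries, the number of called lncRNAs was 27 to 33 under every alternative scaling, filter, shrinkage and gene set and with limma-voom, and DESeq2 called 55, of which 31 were higher and 24 lower, and also 16.3% of all genes, against 8.57% with edgeR. Leaving out each library in turn gave 12 to 27 called, 8 to 15 higher and 4 to 12 lower. Without WT libraries 27 and 29 there were 19 called, and 181 lncRNAs (68.8%, against 66.8% of all genes) had no overlap, since a lone WT library separates more easily. The median log2 fold change was -0.15 with total counts only, a scaling that moved the median of all genes by -0.12. A limit of 2 CPM on the mean gave 573 lncRNAs with 41 called, and one of 10 CPM gave 135 with 17 called. Of 833 values for named lncRNAs under the alternatives, 726 stayed on the same side of the threshold, 103 lost it and 4 gained it. The 28 called lncRNAs kept their sign in every fit. Some uncalled ones with small changes did not, such as Oip5os1, at 0.05 in the main fit and -0.08 with total counts only. Low counts limit the lncRNAs near 5 CPM, and 3 libraries a group limit all. No paired analysis was possible because the replicate numbers in the titles are not shared between the groups.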

Other observations

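Among the 10 lncRNAs that hold small nucleolar RNA genes was Zfas1, which overlaps Znfx1 on the opposite strand. Zfas1 was at 210, 209 and 141 CPM in KO, against 180.5, 140.5 and 179 CPM in WT, whereas Znfx1, a helicase gene of antiviral defence, was at 109, 103 and 119 CPM in KO and 52.6, 86.3 and 62.5 CPM in WT (log2 fold change 0.71, edgeR adjusted p = 0.0454). Another small nucleolar RNA host, 9330159M07Rik, was at 8.26, 9.86 and 5.11 CPM in KO, against 19.5, 15.6 and 17.6 CPM in WT (-1.18, edgeR adjusted p = 0.0308). Gm2629 was at 145, 177 and 115 CPM in KO, against 221, 194 and 168 CPM in WT (-0.42, edgeR adjusted p = 0.163), and its nearest coding gene Kctd1, 43277 bases away, was at 7.96, 9.29 and 9.52 CPM in KO and 21.5, 18.4 and 17 CPM in WT (-1.09, edgeR adjusted p = 0.0124). Junos, antisense to the AP-1 gene Jun, was at 3.53, 9.75 and 15.6 CPM in KO, against 1.18, 3.16 and 5.61 CPM in WT (1.54, edgeR adjusted p = 0.206), with the groups overlapping.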
